A study of Gallus gallus with 9 samples.

Results

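Genes of meiosis and meiotic recombination were followed in PGCs (primordial germ cells) of the chicken, Gallus gallus. PGCs are the embryonic founders of eggs and sperm. A set of 35 genes was named for known roles in these processes, and 22 of them matched a symbol in the deposited tables, out of 24356 genes listed in the count files. The other 13 (SYCP1, SYCP2, SYCE1, SYCE2, REC8, RAD21L1, HORMAD1, STRA8, MCMDC2, MSH5, RNF212, TEX14 and TEX15) were not analysed here. Only 13354 of the listed genes had a symbol, so some of these 13 may be listed without one. That they were not found says nothing of their level. Poly(A) RNA was sequenced from 9 libraries in 3 groups of 3. Control cells were wild type and carried a control vector, and the other groups were labelled Lin28A knockout and Lin28B knockout. The labels give no sex, age or passage of the cells, no method of knockout and no word on whether a group was 1 clone or several cultures. The p-values therefore measure only the spread between these libraries.

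Meiosis is the special form of cell division by which germ cells reduce their chromosome number before making gametes. A cell that enters it loads cohesin and axis proteins onto its chromosomes, cuts its DNA on purpose, and repairs the cuts from the homologous chromosome. The synaptonemal complex holds the homologues together while some of the repairs mature into crossovers. PGCs at the stage kept in culture still divide by mitosis, so the set holds genes used only in meiosis beside repair genes that dividing cells also need.

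Library totals ran from 27.7 to 32.2 M counts, and the filter on low counts left 15475 genes to test. Levels are given as CPM, counts scaled to the library's size with TMM factors. The floor used for a gene near 0 was 3 counts, equal to 0.0904 to 0.112 CPM depending on the library, and covers counting error only. The targeted transcripts did not follow the labels closely. Relative to the control library of the same number, LIN28A was at 72.8%, 76.2% and 7.28% in replicates 1, 2 and 3 of LIN28A knockout, and LIN28B averaged 55.0 ± 4.65 CPM (SD, n = 3) in the libraries labelled LIN28B knockout against 53.2 ± 8.30 CPM (n = 3) in control. By number, LIN28B was at 105%, 131% and 81.3% of control in LIN28B knockout replicates 1, 2 and 3. Neither difference passed the test (edgeR adjusted p = 0.479 and 0.929), so the group names below stand for the labels. LIN28B was lowest in the libraries labelled LIN28A knockout, at 40.3, 41.7 and 38.0 CPM, below each library of the other groups. Against control that was a log2 fold change of −0.41 ± 0.14 (SE), which did not pass either (edgeR adjusted p = 0.327). For LIN28B knockout libraries the description field points to the LIN28A comparison of the authors, whereas their titles and genotypes name LIN28B, and the groups follow titles and genotypes. A knockout need not remove the transcript, and protein was not measured in these files. Replicate 3 stood apart from replicates 1 and 2 in each group, by a root mean square log2 difference of 0.35 to 0.686 against 0.133 to 0.152 between replicates 1 and 2. The germ cell label was checked on DDX4, the germ cell RNA helicase, at 516 to 820 CPM over the 9 libraries. DAZL, a germ cell translation regulator, was at 1804 to 2102 CPM in control, 1341 to 1506 CPM in LIN28A knockout and 1547 to 1791 CPM in LIN28B knockout. Each knockout library thus lay below each control library for DAZL (edgeR adjusted p = 0.161 and 0.560). The 12 germ cell markers found, DDX4 and DAZL among them, summed to 4818 to 4957 CPM in control. They summed to 4004 to 4449 CPM in LIN28A knockout, below each control library, and to 4702 to 4942 CPM in LIN28B knockout. Of these 12, 4 had a log2 fold change above 0 in LIN28A knockout and 7 in LIN28B knockout. Fibroblast markers, 15 genes with none at 0 in any group, summed to 629 to 1026 CPM in control, 489 to 1497 CPM in LIN28A knockout and 502 to 1052 CPM in LIN28B knockout. Of these 15, 7 had a log2 fold change above 0 in LIN28A knockout and 5 in LIN28B knockout. Gonadal somatic markers summed to 19.1 to 22.2 CPM in control, 29.2 to 52.1 CPM in LIN28A knockout and 13.8 to 16.7 CPM in LIN28B knockout. Those sums did not overlap between groups. SOX9, 1 of these markers, followed the same order. It was at 13.7, 12.6 and 14.4 CPM in control, 44.5, 37.5 and 19.4 CPM in LIN28A knockout, and 2.95, 2.68 and 8.82 CPM in LIN28B knockout. Of the 7 gonadal somatic markers tested, 4 had a log2 fold change above 0 in LIN28A knockout and 6 in LIN28B knockout. The sums therefore do not speak for the list as a whole. Leukocyte markers summed to 16.0 to 21.4, 24.8 to 30.8 and 16.1 to 19.8 CPM in the same order, with LIN28A knockout above both other groups. Of the 6 leukocyte markers tested, 4 had a log2 fold change above 0 in LIN28A knockout and 5 in LIN28B knockout. LCP1, 1 of them, was at 11.6, 14.5 and 20.3 CPM in LIN28A knockout, against 9.41, 8.02 and 8.77 CPM in control. Endothelial markers summed to 18.3 to 39.4, 7.79 to 40.2 and 44.3 to 55.7 CPM, with LIN28B knockout above both others. The 2 erythroid markers found summed to 0 to 0.343 CPM over the 9 libraries.

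Control PGCs held transcripts of most of the genes found. Of 22 genes, 16 reached at least 1 CPM in all 3 control libraries and are called present, 4 were low (below that level in at least 1 control library but above the floor in all 3), and 2 were at or under the floor in at least 1 control library. The present genes were SYCP3, STAG3, SMC1B, HORMAD2, MEIOC, YTHDC2, PSMC3IP, BRCA1, BRCA2, BRIP1, MCM8, MCM9, MSH4, MLH3, TEX11 and M1AP. SYCE3, DMC1, SPATA22 and HFM1 were low. SPO11 and MEIOB were at or under the floor and did not pass the filter, which left 20 genes tested. CPM is not divided by gene length, so levels are compared here between libraries of 1 gene and not between genes.

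Of the proteins that build the synaptonemal complex, SYCP3, part of the axial elements, was present in control. SYCP3 (ENSGALG00000012766) was at 7.51, 10.1 and 8.02 CPM in control, 6.42, 6.43 and 18.2 CPM in LIN28A knockout, and 5.97, 4.47 and 5.78 CPM in LIN28B knockout. LIN28A knockout replicate 3 was thus the highest of the 9 libraries, and all LIN28B knockout libraries lay below all control libraries. SYCE3 (ENSGALG00000042936), of the central element, was at 1.43, 0.388 and 0.597 CPM in control, 0.422, 0.640 and 0.344 CPM in LIN28A knockout, and 0.357, 0.787 and 0.568 CPM in LIN28B knockout. Its groups overlapped.

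Both meiotic cohesin genes found, whose products join with the general cohesin ring to hold meiotic chromatids together, were present in control. STAG3 (ENSGALG00000016716) was at 43.2, 44.2 and 55.9 CPM in control, 44.1, 43.3 and 46.9 CPM in LIN28A knockout, and 49.0, 52.8 and 49.2 CPM in LIN28B knockout, a narrow range over all 9 libraries. SMC1B (ENSGALG00000014228) was at 20.8, 20.1 and 15.3 CPM in control, 14.1, 15.9 and 47.5 CPM in LIN28A knockout, and 15.5, 12.7 and 9.86 CPM in LIN28B knockout. As with SYCP3, LIN28A knockout replicate 3 was the highest library for SMC1B, while replicates 1 and 2 of that group were lower than the control libraries of the same numbers. HORMAD2 (ENSGALG00000008037), a chromosome axis protein known in mouse for marking unpaired axes, was at 2.09, 2.72 and 1.94 CPM in control, 2.08, 2.5 and 4.99 CPM in LIN28A knockout, and 2.40, 1.79 and 2.04 CPM in LIN28B knockout. It too was highest in LIN28A knockout replicate 3.

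MEIOC and YTHDC2 encode partners that, in mouse, bind RNA and help germ cells leave the mitotic programme. MEIOC (ENSGALG00000045889) was at 4.46, 4.07 and 5.0 CPM in control, 3.86, 5.27 and 12.6 CPM in LIN28A knockout, and 3.15, 2.33 and 3.91 CPM in LIN28B knockout. LIN28A knockout replicate 3 was again the highest, and the LIN28B knockout libraries did not overlap control. YTHDC2 (ENSGALG00000000189) was at 137, 134 and 154 CPM in control, 160, 172 and 180 CPM in LIN28A knockout, and 147, 142 and 161 CPM in LIN28B knockout. All LIN28A knockout libraries lay above all control libraries for YTHDC2.

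**Figure D1:**
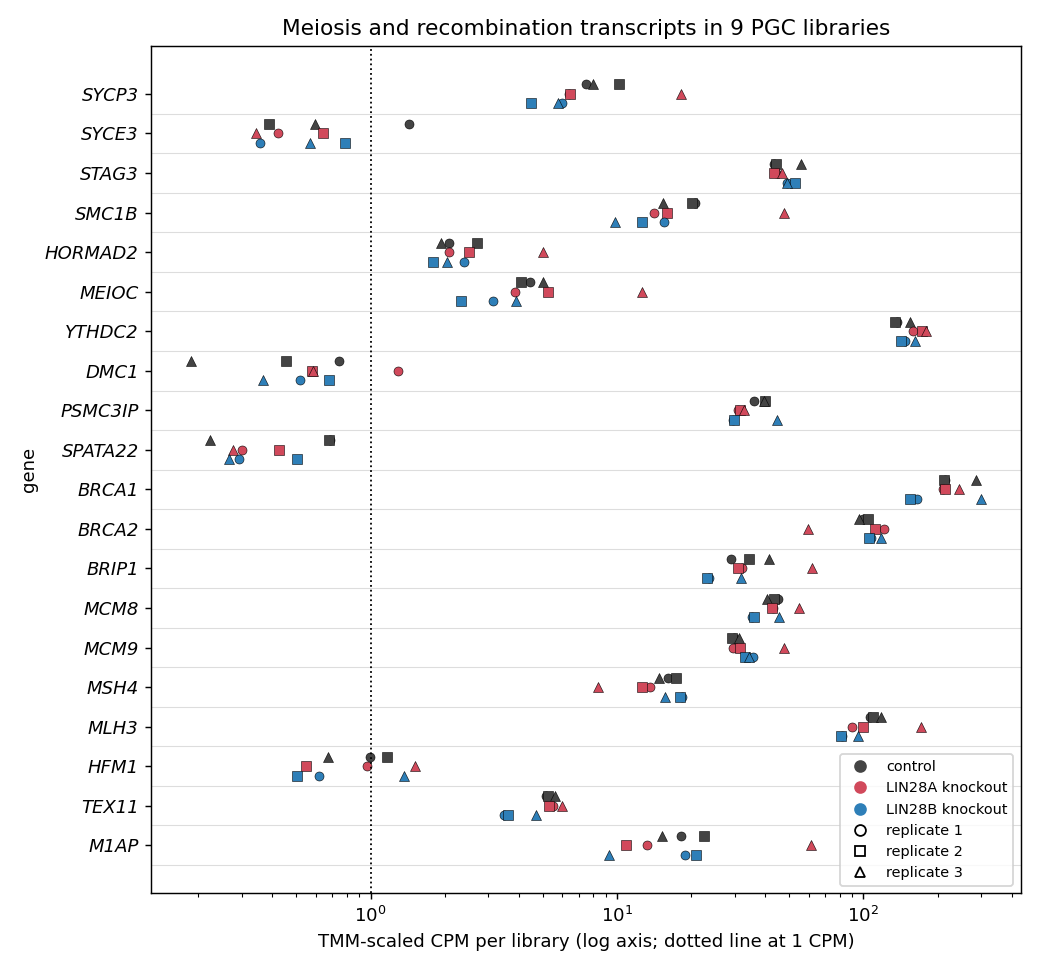
TMM-scaled CPM (log axis) of the 20 tested genes in each of the 9 libraries, with 1 point per library, colour for group and marker shape for replicate number. In control 16 genes sit above 1 CPM in every library, and for SYCP3, SMC1B, HORMAD2, MEIOC and M1AP the LIN28A knockout replicate 3 point lies to the right of all others.

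The genes that make and process DNA breaks split into those at or near the floor and those well above it. SPO11 (ENSGALG00000031768), the enzyme that cuts DNA at the start of meiotic recombination, had 6, 6 and 0 counts in control, 6, 5 and 8 in LIN28A knockout, and 0, 4 and 4 in LIN28B knockout. MEIOB (ENSGALG00000005411), which coats single-stranded meiotic DNA together with SPATA22, had 2, 3 and 0 counts in control, 18, 2 and 4 in LIN28A knockout, and 2, 0 and 10 in LIN28B knockout. Neither gene was tested, and the counts of each overlapped between all groups. DMC1 (ENSGALG00000012236), the meiotic strand-exchange enzyme, was at 0.748, 0.453 and 0.187 CPM in control, 1.30, 0.579 and 0.586 CPM in LIN28A knockout, and 0.519, 0.680 and 0.368 CPM in LIN28B knockout. SPATA22 (ENSGALG00000049567) was at 0.685, 0.679 and 0.224 CPM in control, 0.301, 0.427 and 0.276 CPM in LIN28A knockout, and 0.292, 0.501 and 0.267 CPM in LIN28B knockout. Groups overlapped for both, and the control libraries of DMC1 themselves ran from 5 to 24 counts.

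Repair genes that dividing cells also use were present throughout. BRCA1, which directs broken ends to homologous repair, averaged 237 ± 41.8 CPM in control, 223 ± 19.0 CPM in LIN28A knockout and 206 ± 81.3 CPM in LIN28B knockout (SD, n = 3 each). In LIN28B knockout BRCA1 was at 165, 154 and 300 CPM, so that replicates 1 and 2 were the lowest of the 9 libraries and replicate 3 the highest. BRCA2, which acts in homologous repair, was at 121, 111 and 59.3 CPM in LIN28A knockout against 99.8, 105 and 96.0 CPM in control: the first pair lay above all control libraries and replicate 3 below all of them. BRIP1, a helicase that binds BRCA1, was at 29.1, 34.3 and 41.2 CPM in control, 32.3, 31.1 and 61.8 CPM in LIN28A knockout, and 23.6, 23.3 and 31.8 CPM in LIN28B knockout. PSMC3IP, a helper of strand invasion, was at 35.8, 40.0 and 39.4 CPM in control, 31.1, 31.4 and 32.9 CPM in LIN28A knockout, and 29.5, 29.9 and 44.5 CPM in LIN28B knockout. It was below control in every LIN28A knockout library, and in LIN28B knockout replicate 3 it was the highest of all. MCM8 and MCM9 form a helicase used in homologous repair. MCM8 was at 44.9, 43.3 and 40.6 CPM in control, 42.9, 42.7 and 55.0 CPM in LIN28A knockout, and 35.3, 35.9 and 45.6 CPM in LIN28B knockout. MCM9 averaged 30.1 ± 0.961 CPM in control (SD, n = 3) and, like MCM8, was highest in LIN28A knockout replicate 3, at 47.8 CPM.

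Among crossover genes, MSH4, which stabilises recombination intermediates, was the 1 with lower values in all LIN28A knockout libraries. MSH4 (ENSGALG00000011392) was at 16.2, 17.4 and 14.8 CPM in control, 13.6, 12.7 and 8.37 CPM in LIN28A knockout, and 18.3, 18.1 and 15.7 CPM in LIN28B knockout. MLH3, which acts in crossover resolution, was at 107, 109 and 118 CPM in control, 90.2, 99.2 and 171 CPM in LIN28A knockout, and 81.9, 81.4 and 95.5 CPM in LIN28B knockout. HFM1, a helicase for crossover formation, was low, with a mean of 0.944 ± 0.250 CPM in control, 1.01 ± 0.485 CPM in LIN28A knockout and 0.829 ± 0.472 CPM in LIN28B knockout (SD, n = 3 each). TEX11 (ENSGALG00000005775), a crossover-associated protein in mouse, was at 5.14, 5.27 and 5.60 CPM in control, 5.48, 5.30 and 5.99 CPM in LIN28A knockout, and 3.47, 3.62 and 4.71 CPM in LIN28B knockout. Each LIN28B knockout library was thus below each library of the other groups for TEX11. M1AP (ENSGALG00000046984), known in mouse for a role in male meiosis, was at 18.1, 22.5 and 15.2 CPM in control, 13.2, 10.9 and 61.3 CPM in LIN28A knockout, and 18.9, 21.0 and 9.32 CPM in LIN28B knockout. Its spread between replicates of LIN28A knockout was the widest of the set in CPM relative to the group mean among present genes, with an SD of 28.5 CPM on a mean of 28.5 CPM (n = 3).

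LIN28A knockout was compared with control to ask which of these transcripts differ when LIN28A is targeted. No gene of the set passed the test: edgeR called 0 of 20 at an adjusted p under 0.05, where it called 0.00646% of all genes tested. At an unadjusted p under 0.05 there were 2, YTHDC2 and MSH4, against 10.6% of all genes, and DESeq2 called 0 of 20 as well, against 2.46% of all genes, with YTHDC2 and MSH4 again at an unadjusted p under 0.05 (12.3% of all genes). With the replicate number as a block, edgeR called 0 of 20, against 0.084% of all genes. YTHDC2 differed by 0.27 ± 0.10 (log2 fold change ± SE; edgeR adjusted p = 0.398) and MSH4 by −0.48 ± 0.20 (edgeR adjusted p = 0.430). The largest differences belonged to low genes or to genes with a wide spread: DMC1 at 0.81 ± 0.61 (edgeR adjusted p = 0.680), SYCE3 at −0.78 ± 0.60 (0.693), MEIOC at 0.68 ± 0.42 (0.615), SPATA22 at −0.66 ± 0.58 (0.734) and M1AP at 0.61 ± 0.59 (0.759). Single libraries set several of these values: SYCE3 was at −0.066 without control replicate 1, and DMC1 at 0.32 without LIN28A knockout replicate 1 and at 1.34 without control replicate 1. The median over the 20 genes was 0.12, beside 0.02 over all genes tested, with 13 genes above 0 and 7 below. This median was −0.15 without LIN28A knockout replicate 3, so its sign rested on that library, and it ran up to 0.24 with 1 other library left out. For 11 of the 20 genes the 95% interval of the difference lay within a factor of 2 either way, and for the other 9 it reached past that, so these libraries do not bound those differences to that factor. Libraries without overlap between the groups occurred for YTHDC2 on the higher side (1 of 20, against 8.21% of all genes) and for MSH4 and PSMC3IP on the lower side (2 of 20, against 9.78%). Of the 22 genes, 0 had an adjusted p under 0.05 in the authors' deposited table, against 1.72% of the genes it lists. It gave no adjusted p for SPO11 and MEIOB. Its unadjusted DESeq2 p was under 0.05 for 2 genes, YTHDC2 and PSMC3IP, with no share over all genes computed. In bulk RNA, fewer cells that express a gene and less RNA per cell cannot be told apart.

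**Figure D2:**
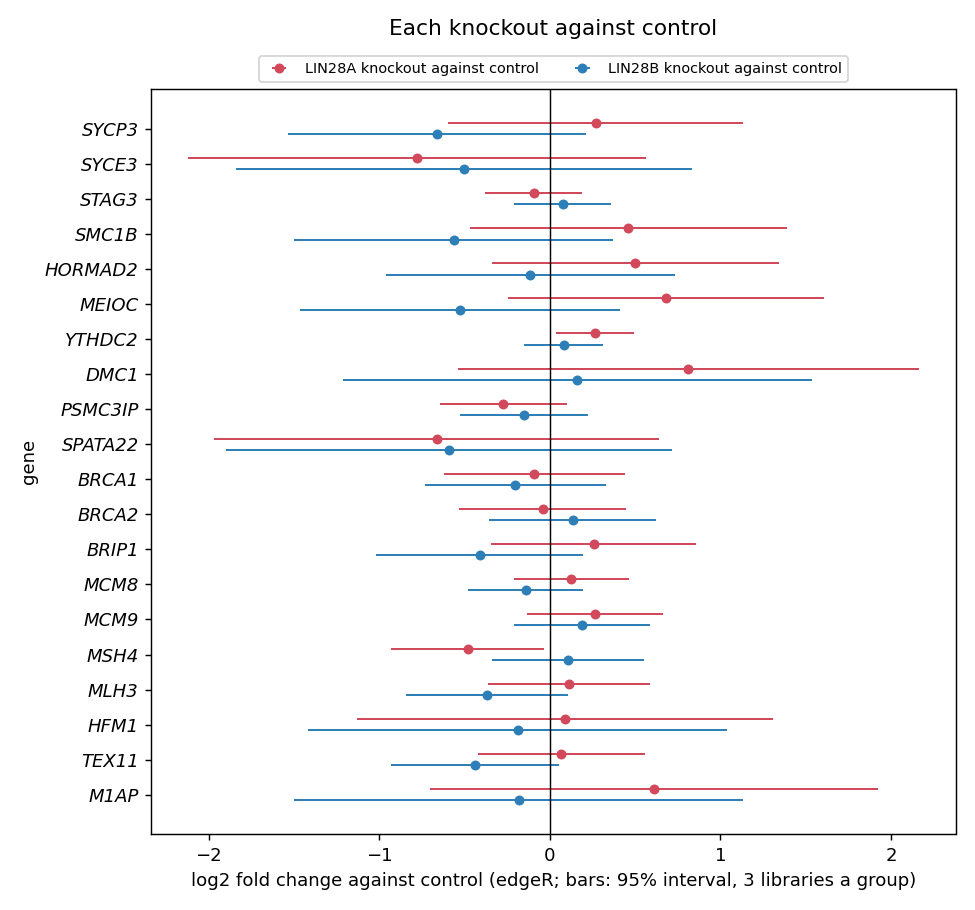
Log2 fold change of each tested gene in LIN28A knockout (red) and in LIN28B knockout (blue) against the same 3 control libraries, from edgeR, with 95% intervals. No gene passed the adjusted threshold in either comparison, and the widest intervals are those of the low genes SYCE3, DMC1, SPATA22 and HFM1 and of M1AP.

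The group means of LIN28A knockout hid a split between its libraries. Against the control library of the same number, replicate 3 was at least 1.5-fold higher for 8 of 20 genes, where 17.3% of all genes were that much higher: M1AP at 4.04-fold, DMC1 at 3.14-fold, SMC1B at 3.10-fold, HORMAD2 at 2.57-fold, MEIOC at 2.52-fold, SYCP3 and HFM1 at 2.26-fold and MCM9 at 1.53-fold. These are ratios of 1 library to 1 library with no replicate check. That of DMC1 rests on 17 against 5 counts and that of HFM1 on 44 against 18. At least 1.5-fold lower were 3 genes, against 17.5% of all genes: MSH4 at 0.565, SYCE3 at 0.577 and BRCA2 at 0.618 of control replicate 3. In replicate 1 only DMC1 was that much higher (1 of 20, against 10.9%), and SPATA22 and SYCE3 that much lower (2 of 20, against 7.48%). In replicate 2 only SYCE3 was that much higher (1 of 20, against 10.8%), with HFM1, M1AP, SPATA22 and SYCP3 that much lower (4 of 20, against 8.55%). The ratios of low genes rest on few counts. In replicate 1 DMC1 had 43 against 24 in control, SPATA22 10 against 22 and SYCE3 14 against 46. In replicate 2 SYCE3 had 21 against 12, HFM1 18 against 36 and SPATA22 14 against 21, and in replicate 3 SYCE3 had 10 against 16. Replicate 3 of LIN28A knockout was the highest of all 9 libraries for 12 of the 20 genes, where it was the highest for 28.2% of all genes, and the lowest for 3 (BRCA2, MSH4 and SYCE3), where it was the lowest for 28.4%. The fold threshold and the count of highest libraries were chosen after the values were seen and carry no test.

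**Figure D3:**
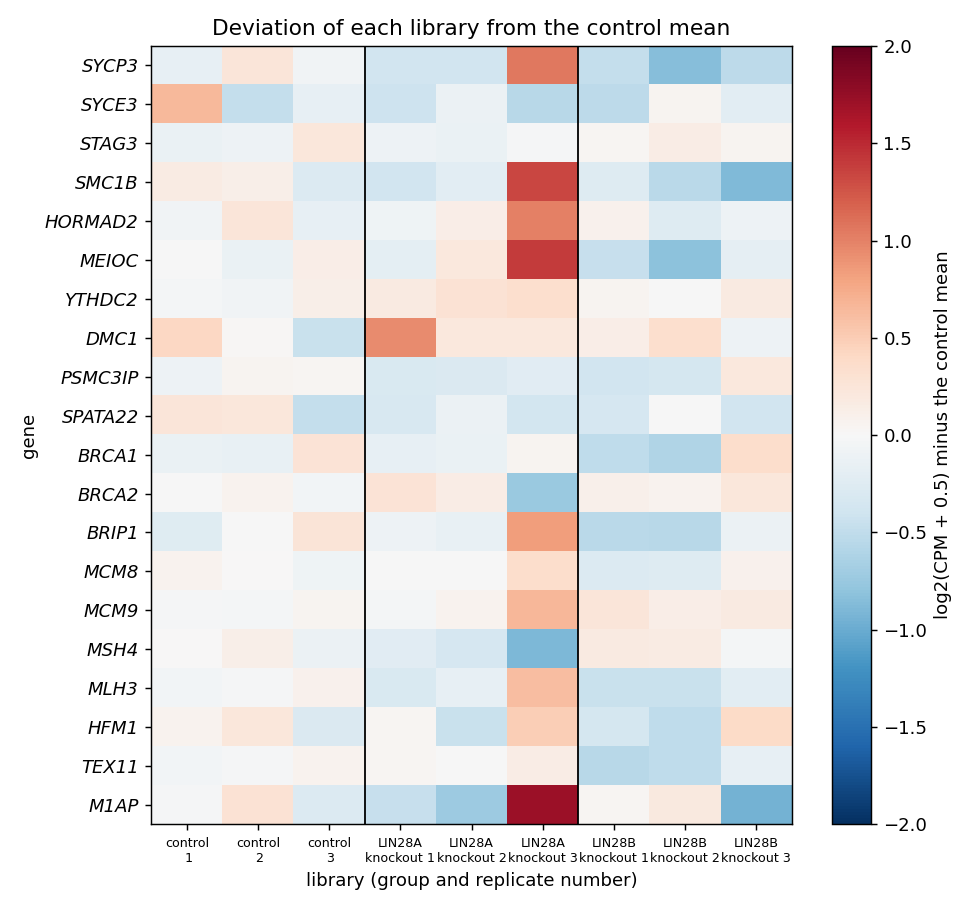
Heat map of log2(CPM + 0.5) minus the control mean for the 20 tested genes (rows) in the 9 libraries (columns, lines between groups), red for above and blue for below the control mean. The deepest red cells are those of M1AP, MEIOC and SMC1B in LIN28A knockout replicate 3. In the same group DMC1 is red in replicate 1 and M1AP blue in replicates 1 and 2.

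The median over the 20 genes of the log2 difference from the control mean was −0.13, −0.12 and 0.35 in LIN28A knockout replicates 1, 2 and 3, beside medians over all genes tested of −0.00, −0.00 and −0.01. That library also differed from its group in other measures. It held 17.7 CPM of LIN28A, against 117 and 109 CPM in replicates 1 and 2. Its fibroblast markers summed to 489 CPM, against 1497 and 1455 CPM, and its 12 germ cell markers to 4004 CPM, against 4439 and 4449 CPM. Within the fibroblast sum, COL1A1 alone was at 73.3 CPM, against 590 and 517 CPM. The part of these in the values above was not tested. Without LIN28A knockout replicate 3, edgeR still called 0 of 20 genes, where it called 2.86% of all genes (300 higher and 153 lower). In that fit SMC1B was at −0.32 ± 0.21 (edgeR adjusted p = 0.486), SYCP3 at −0.41 ± 0.21 (0.352), M1AP at −0.63 ± 0.32 (0.341), MEIOC at 0.02 ± 0.27 (0.983) and HORMAD2 at 0.03 ± 0.30 (0.98). The positive differences of these 5 genes over all libraries thus rested on that 1 library.

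With replicates 1 and 2 only of every group, which lay close together, edgeR called 7 of 20 genes in LIN28A knockout, where it called 30.1% of all genes. This setting has 2 libraries a group and leaves out the one that stood apart. Its p-values, here and in the comparisons below, measure only the small spread between replicates 1 and 2. Fibroblast markers summed to 1497 and 1455 CPM in these LIN28A knockout libraries, against 645 and 629 CPM in control replicates 1 and 2. COL1A1 alone was at 590 and 517 CPM, against 109 and 102 CPM. Of the 15 fibroblast markers, this setting called 7 higher and 1 lower. The part of this in the calls of the set was not tested. Higher were YTHDC2, by 0.29 ± 0.05 (edgeR adjusted p = 1.48e-04), and BRCA2, by 0.19 ± 0.06 (0.0190). Lower were M1AP at −0.75 ± 0.13 (edgeR adjusted p = 7.32e-05), SMC1B at −0.45 ± 0.13 (0.00811), MSH4 at −0.35 ± 0.12 (0.0308), PSMC3IP at −0.28 ± 0.09 (0.0202) and MLH3 at −0.19 ± 0.06 (0.0203). The share called in the set was near that of all genes. YTHDC2, MSH4 and PSMC3IP had no overlap with control in the full set, so their direction in this subset was fixed and adds no support. M1AP and SMC1B were called lower here and lay on the other side of 0 over all 9 libraries, as did MLH3 and, in the other direction, BRCA2.

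**Figure D4:**
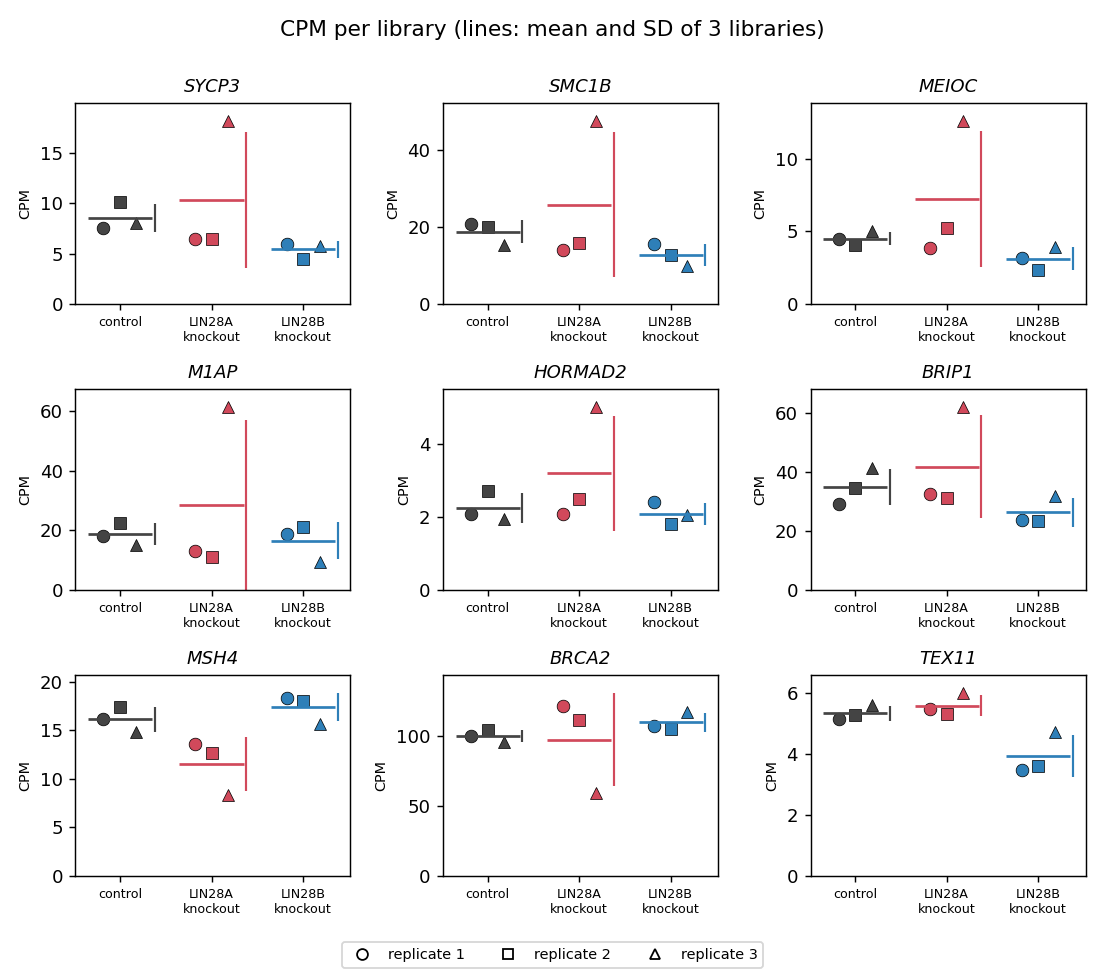
CPM of 9 genes in each library by group, with marker shape for replicate number, horizontal lines for group means and vertical lines for the SD of 3 libraries (the SD line of M1AP reaches 0). The LIN28A knockout replicate 3 triangle is above all other points for SYCP3, SMC1B, MEIOC, M1AP, HORMAD2 and BRIP1 and below them for MSH4 and BRCA2, and the LIN28B knockout points of TEX11 lie below those of both other groups.

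The same question was asked of LIN28B knockout, whose mean LIN28B level was not below that of control. More genes of the set lay below control than above, and none passed the test. Of 20 genes 14 were below 0 and 6 above, with a median log2 fold change of −0.19 beside −0.00 over all genes tested. By edgeR 0 of 20 were called, against 0.0129% of all genes, with 0 at an unadjusted p under 0.05 against 8.87%. DESeq2 called 0 of the 17 genes to which it gave an adjusted p (none for SYCE3, DMC1 and SPATA22), against 1.13% of all genes, with 1 (TEX11) at an unadjusted p under 0.05, against 10.5%. The fit with the replicate block called 0 of 20, against 0.155% of all genes. The largest differences were those of SYCP3 at −0.66 ± 0.39 (edgeR adjusted p = 0.642), SPATA22 at −0.59 ± 0.59 (0.782), SMC1B at −0.56 ± 0.42 (0.721), MEIOC at −0.53 ± 0.42 (0.732) and SYCE3 at −0.50 ± 0.60 (0.820). Without control replicate 1, SYCE3 was on the other side of 0, at 0.21. TEX11 was at −0.44 ± 0.22 (edgeR adjusted p = 0.596) and MLH3 at −0.37 ± 0.21 (0.637). The 95% interval of the difference lay within a factor of 2 either way for 11 of the 20 genes.

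SYCP3, MEIOC, MLH3 and TEX11 were lower in LIN28B knockout with no overlap of the libraries (4 of 20, against 11.4% of all genes), and BRCA2 and MCM9 were higher with none (2 of 20, against 11.6%). MCM9 was at 35.7, 33 and 34.3 CPM against 29.8, 29.4 and 31.2 CPM in control, and BRCA2 at 107, 105 and 117 CPM against the control values given above. The library medians of the 20 genes were −0.31, −0.25 and −0.11 in replicates 1, 2 and 3. Of the 22 genes, 0 had an adjusted p under 0.05 in the authors' deposited table, against 3.88% of the genes it lists. SPO11 and MEIOB had no adjusted p there. Its unadjusted DESeq2 p was under 0.05 for 4 genes, SYCP3, SMC1B, BRIP1 and MLH3, with no share over all genes computed. The lowest adjusted p-values of that deposited table among these genes were 0.0519 for MLH3, at −0.37, and 0.0668 for SYCP3, at −0.67.

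With replicates 1 and 2 only of every group, 9 of 20 genes were called in LIN28B knockout, 8 lower and 1 higher, where 31.2% of all genes were called (16.2% lower). In log2 fold change BRCA1 was at −0.42 ± 0.05 (edgeR adjusted p = 1.89e-07), MLH3 at −0.41 ± 0.06 (1.12e-05), BRIP1 at −0.44 ± 0.10 (0.00118), SMC1B at −0.54 ± 0.13 (0.00192), PSMC3IP at −0.36 ± 0.09 (0.00345), SYCP3 at −0.75 ± 0.19 (0.00346), MCM8 at −0.31 ± 0.08 (0.00434) and TEX11 at −0.56 ± 0.21 (0.0455). The 1 gene called higher was STAG3, at 0.22 ± 0.08 (edgeR adjusted p = 0.0379), though it stood at 0.880 of control in replicate 3. LIN28B knockout replicate 3 did not show these differences for BRCA1, PSMC3IP and MCM8, which stood there at 1.05-fold, 1.13-fold and 1.12-fold of control replicate 3. For SYCP3, SMC1B, BRIP1, MLH3 and TEX11 it was below control replicate 3, at 0.721, 0.643, 0.771, 0.811 and 0.842 of it. SYCP3, MLH3 and TEX11 had no overlap with control in the full set. Their direction in the subset and in replicate 3 was thereby fixed and adds no support.

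The knockouts were set against each other to test whether a gene differs between them. No gene of the set passed (edgeR 0 of 20, against 0.517% of all genes), with 7 at an unadjusted p under 0.05 (BRIP1, MEIOC, MLH3, MSH4, SMC1B, SYCP3 and TEX11) against 18.0% of all genes, and DESeq2 called 0, against 6.71%, with the same 7 genes at an unadjusted p under 0.05 against 20.7%. The fit with the replicate block also called 0 of 20, against 5.75% of all genes. MEIOC was at 1.21 ± 0.42 (LIN28A knockout minus LIN28B knockout; edgeR adjusted p = 0.190), SMC1B at 1.02 ± 0.42 (0.247), SYCP3 at 0.93 ± 0.39 (0.258), TEX11 at 0.51 ± 0.22 (0.268) and MSH4 at −0.59 ± 0.20 (0.184). TEX11 was higher in every LIN28A knockout library than in every LIN28B knockout library, and so was SYCP3 (2 of 20, against 11.7% of all genes). MSH4 and STAG3 were lower in every LIN28A knockout library (2 of 20, against 12.6%). Without LIN28A knockout replicate 3 the difference of SMC1B was 0.24 ± 0.21 (edgeR adjusted p = 0.590), that of SYCP3 0.25 ± 0.21 (0.584) and that of MEIOC 0.54 ± 0.28 (0.339), while TEX11 was at 0.46 ± 0.21 (0.298). With replicates 1 and 2 only of every group, 10 of 20 genes were called, against 39.5% of all genes. BRCA1, BRIP1, MCM8, MEIOC, MLH3, TEX11 and YTHDC2 were then higher in LIN28A knockout than in LIN28B knockout, and M1AP, MSH4 and STAG3 lower. TEX11, MSH4 and STAG3 had no overlap of these groups in the full set. Their direction in this subset was thereby fixed and adds no support. BRCA1 had the smallest p in that setting, at 0.41 ± 0.05 (edgeR adjusted p = 1.55e-07), and replicate 3 of LIN28B knockout, at 300 CPM, lay above all LIN28A knockout libraries for it.

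Other genes of the pathway were taken in lists compiled by known role with earlier results of these data known. By edgeR 0 of them were called in LIN28A knockout, in LIN28B knockout and between the knockouts. Of all genes, 0.00646%, 0.0129% and 0.517% were called in the same order, so a count of 0 in lists of this size tells little. These lists were other meiosis genes (24 of 47 found, 22 tested), homologous recombination repair (35 of 36 found and tested), the general cohesin ring and its regulators (14 of 16 found and tested) and retinoic acid and meiotic entry signals (26 of 30 found, 23 tested). At an unadjusted p under 0.05 these lists held 3, 1, 1 and 6 genes in LIN28A knockout and 2, 2, 1 and 3 in LIN28B knockout, where 10.6% and 8.87% of all genes had such a p. With replicates 1 and 2 only of every group, 7, 7, 5 and 8 genes of these lists were called in LIN28A knockout, against 30.1% of all genes. In LIN28B knockout that setting called 8, 17, 5 and 7, against 31.2% (16.2% lower), and 15 of the 17 repair genes called were lower. The repair list summed to 1828 and 1799 CPM in LIN28B knockout replicates 1 and 2, against 1986 and 1999 CPM in control. Replicate 3 went the other way, at 2228 CPM against 2063 CPM in control replicate 3. The median log2 fold changes of these lists were −0.10, −0.02, −0.12 and 0.04 in LIN28A knockout and −0.03, −0.08, −0.10 and 0.00 in LIN28B knockout. LIN28A knockout replicate 3 was the highest library for 10 of 22 other meiosis genes, 12 of 35 repair genes, 5 of 14 cohesin genes and 5 of 23 signal genes, where it was the highest for 28.2% of all genes. It was the lowest for 6, 7, 2 and 11 genes of these lists, where it was the lowest for 28.4% of all genes. DESeq2 called RAD21 of the cohesin list (1 of 14) and CYP26B1, STRA6 and DAZL of the signal list (3 of 22) lower in LIN28A knockout. It called 0 of 22 other meiosis genes and 0 of 35 repair genes there, against 2.46% of all genes. In LIN28B knockout it called CYP26B1 alone, as lower (1 of 21 signal genes), against 1.13% of all genes.

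CYP26B1, the enzyme that breaks down retinoic acid and is known for delaying meiosis in mouse testis, had the smallest p of the signal list in both knockouts. CYP26B1 was at 19.9, 22.3 and 15.8 CPM in control, 6.12, 6.83 and 5.65 CPM in LIN28A knockout, and 5.35, 3.54 and 9.49 CPM in LIN28B knockout, with no overlap of either knockout with control. Its log2 fold changes were −1.64 ± 0.33 (edgeR adjusted p = 0.126; DESeq2 adjusted p = 3.09e-04) and −1.66 ± 0.33 (edgeR adjusted p = 0.269; DESeq2 adjusted p = 4.08e-04), both against the same control libraries. RAD21, the cohesin subunit of dividing cells whose meiotic relatives include REC8, was at 589, 584 and 647 CPM in control and 452, 456 and 339 CPM in LIN28A knockout. The libraries did not overlap, and its fitted log2 difference was −0.54 ± 0.12 (edgeR adjusted p = 0.168; DESeq2 adjusted p = 0.0116). In the other meiosis list the smallest p belonged in LIN28A knockout to CCNA1, a germ cell cyclin, at −1.42 ± 0.52 (edgeR adjusted p = 0.368). CCNA1 was at 1.84, 2.52 and 3.92 CPM in control, 1.27, 0.366 and 1.45 CPM in LIN28A knockout, and 2.92, 3.76 and 2.00 CPM in LIN28B knockout. The smallest p belonged in LIN28B knockout to TEX12, of the synaptonemal complex central element, at −1.49 ± 0.64 (edgeR adjusted p = 0.559). TEX12 stood at 2.34, 2.91 and 2.84 CPM in control, 1.27, 1.68 and 6.55 CPM in LIN28A knockout, and 0.552, 0.787 and 1.54 CPM in LIN28B knockout. LIN28A knockout replicate 3 was its highest library, and LIN28B knockout did not overlap control. In the repair list the smallest p belonged to RPA3, which coats single-stranded DNA, at −0.40 ± 0.17 in LIN28A knockout (edgeR adjusted p = 0.434), and to BARD1, the partner of BRCA1, at −0.57 ± 0.19 in LIN28B knockout (edgeR adjusted p = 0.496). RPA3 was at 32.2, 30.7 and 37.2 CPM in control and 26.6, 25.6 and 23.7 CPM in LIN28A knockout, with no overlap. BARD1 was at 68.2, 69.8 and 97.5 CPM in control and 46.6, 43.6 and 68.5 CPM in LIN28B knockout, where replicate 3 overlapped control. In the cohesin list the smallest p in LIN28B knockout was that of ESPL1, the protease that opens the cohesin ring, at −0.42 ± 0.14 (edgeR adjusted p = 0.496). STRA6, the retinol uptake receptor, was at 2.55, 3.39 and 7.5 CPM in control and 0.964, 0.792 and 0.0689 CPM in LIN28A knockout, the last under the floor. Its DESeq2 adjusted p was 0.00478 and its edgeR adjusted p 0.214. Between the knockouts the smallest p of the 4 lists belonged to RBM46 at 1.13 ± 0.36 (edgeR adjusted p = 0.158), FANCM at −0.44 ± 0.16 (0.193), RAD21 at −0.57 ± 0.12 (0.0707) and RARA, a retinoic acid receptor, at 0.62 ± 0.12 (0.0632). Of the marker lists, edgeR without the block called none in either knockout against control. Between the knockouts it called the gonadal somatic marker SOX9, at 2.81 ± 0.47 (edgeR adjusted p = 0.0399), and the leukocyte marker LCP1, at 1.49 ± 0.23 (0.0342). These were 1 of 7 and 1 of 6 tested, against 0.517% of all genes. With the block edgeR called CXCR4 lower in LIN28A knockout than in control (adjusted p = 0.0159), 1 of 12 germ cell markers, against 0.084% of all genes. DESeq2 called DAZL, CXCR4, GATA4 and KDR lower and PRDM14, LCP1 and ERG higher there, against 2.46% of all genes. By list these were 3 of 12 germ cell, 1 of 7 gonadal somatic, 1 of 6 leukocyte, 2 of 8 endothelial and 0 of 15 fibroblast markers. In LIN28B knockout it called PRDM14 higher (1 of 12 germ cell markers), against 1.13% of all genes. For LIN28A knockout against LIN28B knockout, the block and DESeq2 both called SOX9, LCP1, COL1A1, COL3A1 and POSTN higher and CXCR4, GATA4 and KDR lower. Some of these were low or overlapped. POSTN was at 4.58, 6.12 and 0.551 CPM in LIN28A knockout, against 0.324, 0 and 0.0668 CPM. GATA4 and KDR averaged 0.553 and 0.475 CPM, against 3.10 and 2.61 CPM. For COL1A1, LIN28A knockout replicate 3, at 73.3 CPM, lay within the LIN28B knockout range of 54.1 to 95.3 CPM. The block alone called PIWIL1, NANOG and LUM lower, and DESeq2 alone TWIST2 higher. In this comparison the block called 5.75% and DESeq2 6.71% of all genes. Of the germ cell, gonadal somatic, fibroblast, leukocyte and endothelial markers the block called 3 of 12, 2 of 7, 4 of 15, 1 of 6 and 1 of 8. DESeq2 called 1 of 12, 2 of 7, 4 of 15, 1 of 6 and 1 of 7.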

How the data were processed

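Per the labels' protocols, RNA came from a Nucleospin RNA Plus kit and libraries from a NEBNext Ultra Directional kit. Each library's deposited file gives 1 raw count per Ensembl identifier. The submitters' processing notes name HISAT2 2.1.0, featureCounts 2.0.3, DESeq2 1.36.0, edgeR 3.38.4 and the builds GRCg6a and galGal6, without roles. No source used here gives the strand setting or the annotation release, so overlapping genes may share reads. Per the file headers, DESeq2 gave the log2 fold changes, p-values, standard errors and Wald score of the authors' deposited tables. Symbols were taken from those tables. No coordinates are given, since the reference gene table has a different build.

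All genes were fitted with edgeR 4.0.16 (R 4.3.3): TMM, filterByExpr, a quasi-likelihood fit of 9 libraries on group, Benjamini-Hochberg adjusted p under 0.05 over all 15475 genes. The fit was tested on simulated data. DESeq2 1.42.0 was an alternative, with others described after the results. Intervals are at 95%. Members and lists were chosen with earlier results of these data known. Values per library are given for landmark genes, the 5 largest differences of each knockout and any called by edgeR (with or without the block) or DESeq2; from each pathway list the gene of smallest p per comparison is named. Marker lists are given as sums, and their called genes are named. Other genes given per library were chosen after their values were seen.

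Same-numbered libraries of each knockout and control correlated in their deviations from the group mean at 0.391, 0.239 and 0.374 (LIN28A knockout) and 0.390, 0.437 and 0.558 (LIN28B knockout) over 10161 genes, so the numbers were taken to pair them. This does not tell replicates 1 and 2 apart. Replicate 1 of a knockout with control replicate 2 gave 0.301 (LIN28A knockout) and 0.417 (LIN28B knockout). Replicate 2 with control replicate 1 gave 0.317 and 0.432, so ratios by number in replicates 1 and 2 rest on the labels. Between the knockouts 1 pair was under 0.1, at 0.0622. Replicates 1 and 2 of a group differed by more than counting noise (chi-square per degree of freedom 4.90 to 6.13) and were kept as separate.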

Additional observations from a re-analysis of the deposited data

How the results depend on the processing

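The count of 0 genes called in each comparison held with DESeq2 (which gave 17 of the 20 genes an adjusted p in LIN28B knockout), with DESeq2 size factors in edgeR, with no filter or a stricter filter on low counts, with the fit on the 2 groups compared only, with the replicate block, and without each of the 9 libraries in turn. The pairing by replicate number (the replicate block) thus gave 0 of 20 called in each comparison, with MEIOC at 0.54 ± 0.33 in LIN28A knockout (edgeR adjusted p = 0.502 with the block) and SYCP3 at −0.68 ± 0.37 in LIN28B knockout (edgeR adjusted p = 0.432 with the block). With replicates 1 and 2 only of every group the counts were 7, 9 and 10 (LIN28A knockout, LIN28B knockout and the knockouts against each other). In that setting SMC1B (−0.45), MLH3 (−0.19), M1AP (−0.75) and BRCA2 (0.19) were called in LIN28A knockout with the sign opposite to that over all libraries, as was M1AP between the knockouts (−0.72). The cause was not tested. The median of the 20 genes in LIN28B knockout was −0.38 in that setting, and ran from −0.39 to −0.077 with 1 library left out: −0.39 without LIN28B knockout replicate 3 and −0.077 without LIN28B knockout replicate 2. The 16 genes present in control stayed within 1.5 times that number at 0.5 CPM, at 2 CPM and with plain library totals.

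Over all genes the calls were 1, 2 and 80 (same order), against 381, 158 and 1018 by DESeq2, 13, 24 and 890 with the replicate block, 5, 2 and 136 with no filter, 0, 1 and 9 with the 2 groups compared only, and 4724, 4898 and 6196 with replicates 1 and 2 only. With 1 library left out they ran from 0 to 453, from 0 to 166 and from 0 to 474. Where a setting calls few or none of all genes, a count of 0 in the set tells little about the set. Depth limits SPO11 and MEIOB, which had 0 to 18 counts in a library, and leaves the low genes SYCE3, DMC1, SPATA22 and HFM1 with the widest intervals beside M1AP.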
